A study of Mus musculus with 6 samples.

Results

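Homeostatic identity genes of microglia, 38 in all, were examined in primary microglia (PM) that received GSK-J4 with or without LPS. The genes were listed by name, as receptors, lineage factors and enzymes by which microglia at rest are known, and all 38 were found among the 24411 genes of the count tables. The rule for the list uses no measured value, but the list was drawn up with earlier results of these data known. PM are microglia shaken off mixed glial cultures that were raised from pooled brains of neonatal ICR mice. The 3 GSK-J4 libraries came from PM given GSK-J4 (10 μM), a cell-permeable inhibitor of the histone demethylases Jmjd3 and Utx. The 3 LPS + GSK-J4 libraries came from PM given the same inhibitor and 10 ng/ml of LPS, the bacterial ligand of Tlr4, with a time of 4 h in both groups. Both groups thus carried the inhibitor, untreated PM and PM with LPS alone were not analysed here, and each difference below is that of LPS in the presence of GSK-J4. PM in culture have no neurons or vessels around them and are a limited model of microglia in the brain. The study describes the replicates as independent samples, and nothing used here says that they came from separate litters, so the p values measure the spread between these samples only.

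Microglia are the resident macrophages of the brain. At rest they survey their surroundings through purinergic receptors, the fractalkine receptor Cx3cr1 and sialic acid-binding receptors, depend on signalling from the Csf1 receptor, and keep their identity through TGF-beta and factors such as Spi1 (PU.1) and Sall1. Many of these genes are known to be lowered when microglia meet LPS and when they are taken into culture.

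With LPS in the presence of GSK-J4, 3 of the 34 identity genes tested were lower by a modest fold at an adjusted p of at most 0.01. This was 8.82%, beside 5.46% of all genes tested. The count of identity genes called ranged from 0 to 9 when libraries were left out, and that of all genes from 920 to 1750. No identity gene changed as strongly as the thresholds of the study ask. Cx3cr1, Csf1r and Lgmn, which encodes the lysosomal protease legumain, fell 1.39-, 1.38- and 1.37-fold. Fcrls lay just outside the threshold, and Sall1 and Rhob were higher with LPS, by log2 differences of 1.08 and 0.56 that did not pass it. Siglech, Crybb1, Slc2a5 and Gpr34 had too few counts to be tested in PM of either group.

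Between 11831774 and 13487463 fragments were sequenced per library and between 2597505 and 3472716 were counted on genes. Ribosomal precursor RNA (Rn45s) took 25.6% ± 5.88 (SD, n = 3) of these counts without LPS and 47.1% ± 1.15 with it. The identity genes together had between 16087 and 25743 counts per GSK-J4 library and between 11773 and 12015 per LPS + GSK-J4 library, so the low ones were measured with less precision in the latter group. Their summed level was between 5422 and 5898 CPM in GSK-J4 and between 4585 and 4862 CPM in LPS + GSK-J4, where CPM are counts brought to a common library total and scaled by TMM, a factor that matches the libraries on the bulk of their genes. A count of 3 in a library, the floor used here, stood for 0.673 to 1.24 CPM. Replicate 3 of each group stood apart on the second principal component, which held 16.4% of the variance. Replicate 3 was the highest of its group in both groups for 12 of the 34 identity genes tested, and the lowest in both for 5, and these counts were 2258 and 2107 among the 10133 genes tested in all. The calls of identity genes below are therefore also given without it.

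Of the 38 genes, 34 passed the filter on low counts and were tested. The study asked for an adjusted p no higher than 0.01 together with a log2 fold change of 1.5 or more up or down. None of the 34 met both in edgeR's quasi-likelihood test, and none did in DESeq2. Over all genes tested, 3.76% were called under this rule, 0.809% lower and 2.95% higher. Of the identity genes, 13 were lower and 2 were higher at an unadjusted p under 0.05, beside 15.5 and 19.3% of all genes tested. At the adjusted p alone, 3 of the 34 fell, 8.82%, beside 5.46% of all genes tested, and none rose, beside 8.42% of all genes. DESeq2 called these 3 and Fcrls at the adjusted p, and no other identity gene. The count of 3 was 0 without GSK-J4 replicate 2 or LPS + GSK-J4 replicate 2, 1 without GSK-J4 replicate 1, 3 lower and 2 higher without LPS + GSK-J4 replicate 1, and 6 lower without LPS + GSK-J4 replicate 3. Without replicate 3 of both groups it was 8 lower and 1 higher, beside 757 lower and 993 higher of 10375 genes tested in that fit. Over the fits with libraries left out, 920 to 1750 of all genes passed in either direction. The share of identity genes that fell, and its side of the background, thus depended on which libraries were kept. With the adjusted p relaxed to 0.05 there were 8 lower and 2 higher identity genes, with 9.91 and 13.7% of all genes. The libraries of the groups did not overlap for 14 identity genes that were lower and 2 that were higher with LPS, and overlapped for 18, beside 18.4 and 19.8% of all genes that were apart in the lower and the higher direction. By sign alone 30 of the 34 were lower, with a median log2 fold change of -0.27, and of all genes tested 5071 of 10133 were lower, with a median of -0.00064. In bulk RNA a smaller share of microglia and less of these transcripts per cell cannot be told apart.

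**Figure D1:**
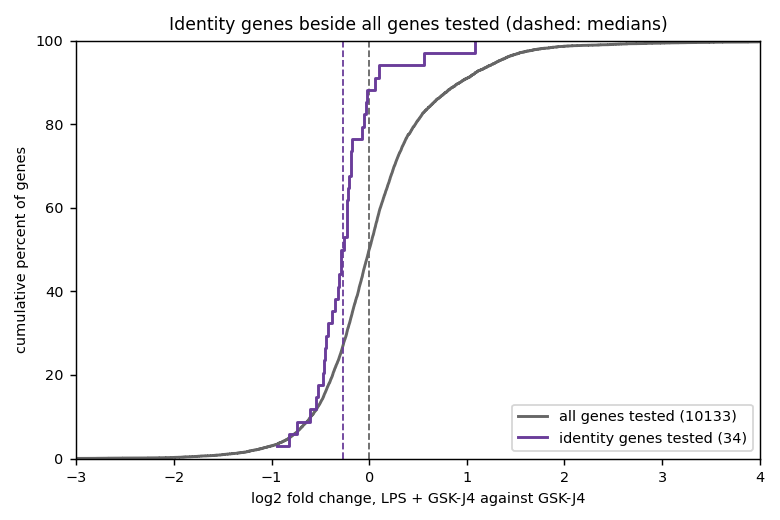
Cumulative percent of genes (y axis) up to each log2 fold change of LPS + GSK-J4 against GSK-J4 (x axis), for the 34 identity genes tested and all 10133 genes tested, with the medians as dashed lines. The curves meet in the low tail, the identity genes lie to the left around the medians (-0.27 and -0.00064), and none of them reaches a log2 fold change of 1.5 in either direction.

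**Figure D2:**
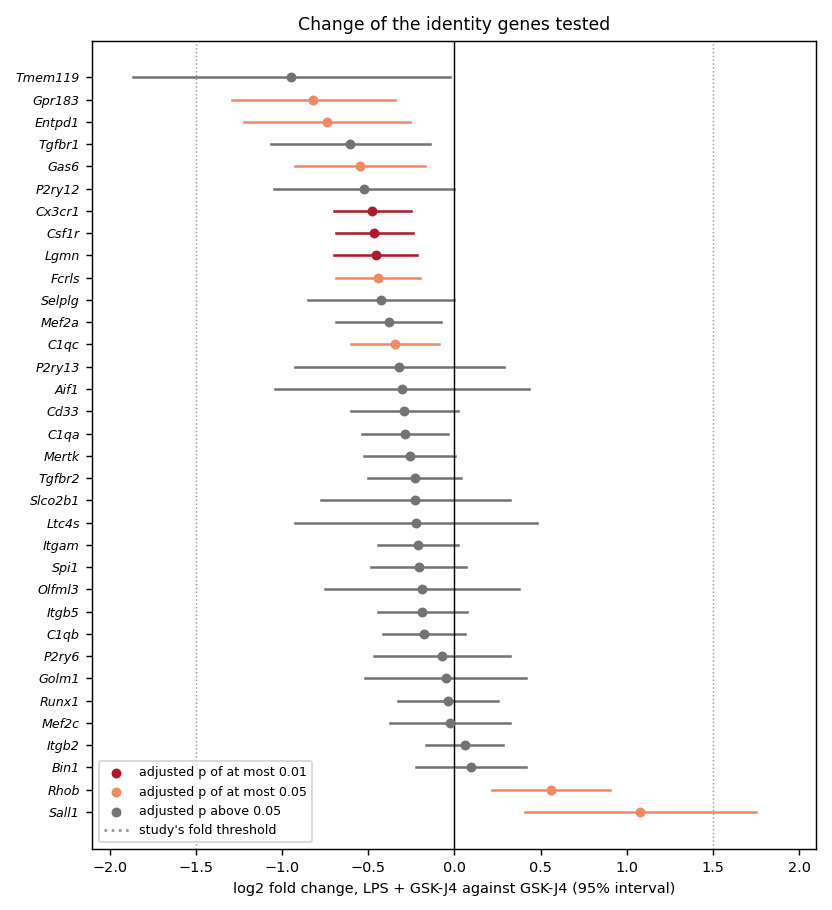
Log2 fold change of LPS + GSK-J4 against GSK-J4 (x axis) with its 95% interval for each of the 34 identity genes tested (y axis), coloured by adjusted p, with dotted lines at the fold threshold of the study. The intervals of 13 genes lie below 0, among them Cx3cr1, Csf1r and Lgmn, and those of 2, Sall1 and Rhob, lie above 0. The widest interval is that of Tmem119.

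Per length, C1q subunits and lysosomal and receptor genes led the levels in these PM, and several genes used as markers of microglia in the brain stood near the bottom. In GSK-J4, the level in RPKM, which is CPM divided by the length of the exons in kilobases, was 465 ± 24.4 (SD, n = 3) for C1qa, 269 ± 10.6 for C1qb, 208 ± 20.2 for Lgmn and 194 ± 22.5 for C1qc. C1qa and C1qb stood apart from each other and from the rest by more than their SDs, whereas Lgmn and C1qc did not differ beyond theirs. Csf1r (131 ± 1.78), Itgb2 (121 ± 3.41), Itgb5 (98.4 ± 15.1), Fcrls (89.6 ± 3.20) and Cx3cr1 (80.4 ± 0.894) followed. P2ry12 was at 5.19 ± 0.739 RPKM, rank 25 of 38, Tmem119 at 2.16 ± 0.867, rank 32, and Sall1 at 0.979 ± 0.334, rank 34. The neighbours P2ry12, Mef2c, P2ry13, Entpd1 and Aif1, from 5.19 down to 4.16 RPKM, differed from the next in order by no more than their SDs. In LPS + GSK-J4 C1qa (382 ± 51.3) and C1qb (238 ± 22.6) again led, Rhob stood at rank 6 with 95.4 ± 19.9 RPKM after rank 10 in GSK-J4, and Gpr34, Slc2a5, Siglech and Crybb1 were the last.

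**Figure D3:**
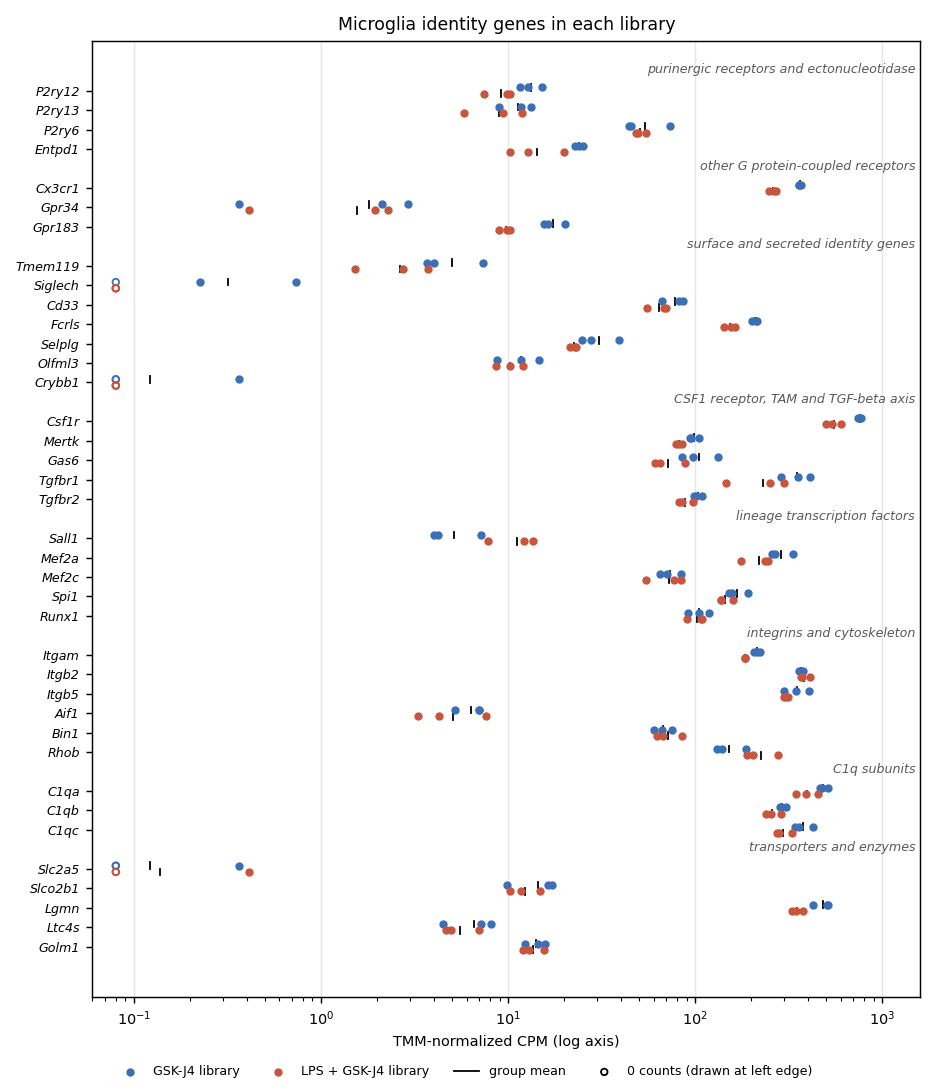
TMM-normalized CPM (x axis, log scale) of the 38 identity genes (y axis, by role) in each of the 3 GSK-J4 and 3 LPS + GSK-J4 libraries, with the group mean as a bar and libraries with 0 counts as open circles at the left edge. Cx3cr1, Fcrls, Csf1r and Lgmn are lower in each LPS + GSK-J4 library than in any GSK-J4 library, Sall1 and Rhob are higher, and Siglech, Crybb1 and Slc2a5 lie at or under the floor of 3 counts.

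Promoter windows are shown for 4 of the genes to set the sequence context of the identity genes beside their levels. Each is 300 bases of RefSeq sequence on the strand of the gene (GRCm38.p6, the assembly of mm10), from 250 bases before the start of transcription to 50 after it. Cx3cr1 (chr9:120068247-120068546, minus strand) is shown because it fell, Fcrls (chr3:87263475-87263774, minus strand) because it lay next to the threshold, Itgam (chr7:128062390-128062689, plus strand) because it held the most matches, and Siglech (chr7:55767934-55768233, plus strand) because it was hardly counted. Capitals mark GAGGAA or, on the other strand, TTCCTC, the core to which the lineage factor Spi1 is known to bind.
Cx3cr1: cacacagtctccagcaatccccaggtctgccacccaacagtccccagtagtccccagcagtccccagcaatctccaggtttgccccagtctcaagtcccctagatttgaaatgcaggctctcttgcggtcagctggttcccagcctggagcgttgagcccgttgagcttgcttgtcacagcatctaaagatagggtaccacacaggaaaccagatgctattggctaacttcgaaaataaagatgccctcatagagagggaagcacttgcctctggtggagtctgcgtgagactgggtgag
Fcrls: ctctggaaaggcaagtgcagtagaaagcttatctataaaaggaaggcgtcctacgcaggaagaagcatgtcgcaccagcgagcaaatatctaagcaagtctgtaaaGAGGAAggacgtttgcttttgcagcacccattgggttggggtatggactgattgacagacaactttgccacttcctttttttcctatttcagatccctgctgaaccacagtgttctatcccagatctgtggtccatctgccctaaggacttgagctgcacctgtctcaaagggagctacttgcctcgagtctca
Itgam: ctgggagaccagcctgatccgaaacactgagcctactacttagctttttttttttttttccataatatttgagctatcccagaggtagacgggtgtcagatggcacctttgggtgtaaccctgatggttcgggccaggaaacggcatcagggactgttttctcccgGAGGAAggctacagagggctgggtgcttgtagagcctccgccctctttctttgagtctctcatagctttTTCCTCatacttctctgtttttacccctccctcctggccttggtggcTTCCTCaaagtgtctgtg
Siglech: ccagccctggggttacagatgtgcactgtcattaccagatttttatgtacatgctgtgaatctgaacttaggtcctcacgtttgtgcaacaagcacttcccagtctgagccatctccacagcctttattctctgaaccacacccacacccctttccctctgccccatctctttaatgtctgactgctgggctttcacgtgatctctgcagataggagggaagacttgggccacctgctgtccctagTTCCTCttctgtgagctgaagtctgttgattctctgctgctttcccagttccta
Itgam had 3 matches, Fcrls and Siglech had 1 each, and Cx3cr1 had 0. Windows were found for 29 of the 38 genes, 39 windows in all, and 19 of these (48.7%) held the letters on either strand, beside 9289 of 32851 windows of all genes (28.3%). Some genes gave several windows, as Mef2c did with 3, and others gave none, among them Csf1r, Spi1 and C1qa. The background covers 27025 genes and was not limited to those tested here, and the difference between the shares was not tested. A match describes the letters of a window and is not a measured site, and the choice of the 4 windows was made with the values known.

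The purinergic genes, by which microglia sense nucleotides released by other cells, had a median log2 fold change of -0.42 over 4 genes, none of which passed the test. P2ry12, the ADP receptor that steers the processes of microglia towards injury (chr3:59216272-59262871 in GENCODE, minus strand), was at 11.6, 15.3 and 12.8 CPM in the GSK-J4 libraries and at 7.42, 10.3 and 9.91 CPM in the LPS + GSK-J4 libraries. Each LPS + GSK-J4 library was below each GSK-J4 library, yet the log2 fold change of -0.52 ± 0.245 (SE) had an adjusted p of 0.141 in edgeR's test. Entpd1, the ectonucleotidase Cd39 that degrades ATP and ADP, was at 25.0, 24.0 and 22.7 CPM without LPS and at 19.9, 10.3 and 12.8 CPM with it. The groups were apart, with a log2 fold change of -0.74 and an adjusted p of 0.0264 in edgeR's test. P2ry13, an ADP receptor next to P2ry12, overlapped between the groups (-0.32), as did the UDP receptor P2ry6 (-0.07), which takes part in the uptake of debris. P2ry12 and P2ry13 lie inside Med12l on the opposite strand, which the stranded counts keep separate.

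Cx3cr1, the receptor for the neuronal chemokine fractalkine (chr9:119901616-120069879, minus strand), fell. It was at 361, 367 and 359 CPM in GSK-J4 (362 ± 4.03, SD, n = 3) and at 270, 264 and 247 CPM in LPS + GSK-J4 (260 ± 12.2). The groups were well apart, and the spread within each was small beside the gap between them. The log2 fold change was -0.48 ± 0.106 (SE), with a 95% interval from -0.70 to -0.25 and an adjusted p of 0.00354 in edgeR's test. The call was lost without GSK-J4 replicate 1 (adjusted p = 0.0158), GSK-J4 replicate 2 (0.0244) or LPS + GSK-J4 replicate 2 (0.0228), with log2 fold changes from -0.49 to -0.47, and held without replicate 3 of both groups (0.000369). Gpr183, the oxysterol receptor that guides immune cells, was at 15.6, 16.4 and 20.2 CPM without LPS and at 8.98, 10.3 and 9.91 CPM with it. Its groups were apart as well, and its log2 fold change of -0.82 had a larger size than that of Cx3cr1 but missed the threshold (adjusted p = 0.0140, edgeR). Gpr34, a lysophosphatidylserine receptor of microglia, had 9, 13 and 1 counts in the GSK-J4 libraries and 5, 6 and 1 in the LPS + GSK-J4 libraries and was not tested.

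Genes of surface and secreted proteins were lower by sign for each of the 5 tested, with a median log2 fold change of -0.42, and none passed the test. Tmem119, a membrane protein that parts microglia from other macrophages (chr5:113793729-113800516, minus strand), was at 7.31, 4.04 and 3.67 CPM without LPS and at 2.73, 1.53 and 3.72 CPM with it. These were low levels that overlapped between the groups, and the log2 fold change of -0.95 had a 95% interval from -1.86 to -0.03 (adjusted p = 0.131, edgeR). Fcrls, an Fc receptor-like protein of microglia, was at 201, 215 and 212 CPM in GSK-J4 and at 156, 163 and 142 CPM in LPS + GSK-J4. The groups were apart, and with a log2 fold change of -0.44 and an adjusted p of 0.01003 in edgeR's test it stood just outside the threshold. It passed in 7 of 15 alternative fits, among them DESeq2 (0.00853) and the fit without replicate 3 of both groups (0.00486). It did not pass in the other 8, which include each fit without a single library (0.0131 to 0.054) and that with at least 10 counts in every library (0.0108). Cd33, a sialic acid-binding receptor (-0.29), and Olfml3, a secreted matrix protein (-0.19), overlapped between the groups. Selplg, the ligand of P-selectin, was at 24.8, 27.8 and 39.2 CPM without LPS and at 23.0, 22.9 and 21.5 CPM with it, with a log2 fold change of -0.42 and an adjusted p of 0.144 (edgeR). Siglech, a sialic acid-binding lectin used to mark microglia in mice, had 0, 1 and 2 counts in GSK-J4 and 0 in each LPS + GSK-J4 library. Crybb1, a crystallin gene of early microglia, had 0, 0 and 1 counts and 0 in each LPS + GSK-J4 library. Both were at or under the floor in both groups, so no fold is given.

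Csf1r, the receptor for Csf1 and Il34 on whose signalling microglia depend to survive, fell. It lies on chromosome 18 and was at 767, 747 and 759 CPM in GSK-J4 (758 ± 10.3, SD, n = 3) and at 540, 503 and 605 CPM in LPS + GSK-J4 (549 ± 52.0). The groups were apart, with a log2 fold change of -0.46 ± 0.106 (SE), a 95% interval from -0.69 to -0.24 and an adjusted p of 0.0045 in edgeR's test. The call was lost without GSK-J4 replicate 1 (adjusted p = 0.0193), GSK-J4 replicate 2 (0.0217), LPS + GSK-J4 replicate 1 (0.0172) or LPS + GSK-J4 replicate 2 (0.0458), with log2 fold changes from -0.48 to -0.40, and held without replicate 3 of both groups (1.41e-05). Csf1r shares 873 bases of exons with Hmgxb3 on the opposite strand. Gas6, the ligand that bridges dying cells to TAM receptors, was at 84.7, 97.2 and 133 CPM without LPS and at 60.9, 64.9 and 88.4 CPM with it, with overlapping groups (-0.55, adjusted p = 0.0349, edgeR). Replicate 3 was the highest of both groups for this gene, and the adjusted p was 0.00179 without it in both groups, 0.00195 without LPS + GSK-J4 replicate 3 alone and 0.15 without GSK-J4 replicate 3 alone. Mertk, the TAM receptor for uptake of dying cells, was at 93.9, 105 and 95.0 CPM and at 79.2, 82.0 and 84.7 CPM. Its groups were apart by a small step, with a log2 fold change of -0.26 and an adjusted p of 0.148 (edgeR). Tgfbr1, the signalling receptor of TGF-beta, was at 356, 411 and 287 CPM and at 297, 251 and 146 CPM. Replicate 3 was the lowest of both groups for this gene, and without it the adjusted p was 0.000625 rather than 0.0581 (edgeR). In another of the fits with libraries left out the adjusted p of Tgfbr1 reached 0.173. Tgfbr2, the receptor that binds the ligand, had a log2 fold change of -0.23 (adjusted p = 0.211, edgeR), with groups apart by a narrow gap (at least 99.0 CPM without LPS and at most 97.2 CPM with it).

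Around these receptors, genes of the same or related pathways moved in both directions. Of 13 tested genes for ligands and signalling of the Csf1 receptor and for other colony-stimulating factor receptors, 4 fell and 1 rose. The median log2 fold change was -0.10. Of all genes tested, 5.46% fell and 8.42% rose at the adjusted p, which are the shares to set beside each list below. Inpp5d and Grb2 fell, as did Csf2rb and Csf3r, which belong to receptors of other colony-stimulating factors. The gene that rose was the ligand Csf1 itself, from 74.5 ± 9.45 to 285 ± 61.7 CPM (SD, n = 3), by a log2 fold change of 1.93 (adjusted p = 2.01e-07, edgeR), past the thresholds of the study, while its receptor fell. Of 23 tested TGF-beta genes, Smad3, a transducer of the signal, fell (-0.91, adjusted p = 0.00498, edgeR), and Lrrc32 and Ltbp1, which hold latent TGF-beta, rose (1.75 and 1.35), with a median of 0.06 over the list. Lrrc32, from 4.33 ± 1.37 to 14.6 ± 5.61 CPM, was past the thresholds of the study. Without replicate 3 of both groups the count of TGF-beta genes past the adjusted p was 6, not 3, and it was 2 without GSK-J4 replicate 3 or LPS + GSK-J4 replicate 2. Of 5 tested genes for TAM receptors, a ligand and proteases, the protease Adam10 fell and the receptor Tyro3 rose. Tyro3 went from 2.77 ± 0.183 to 7.39 ± 1.14 CPM (1.39, adjusted p = 0.0057, edgeR). None of the 5 passed without GSK-J4 replicate 1, GSK-J4 replicate 2 or LPS + GSK-J4 replicate 2, and DESeq2 called 1.

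The lineage transcription factors had a median log2 fold change of -0.03, and none of the 5 passed the test. Spi1 (PU.1), which the whole myeloid lineage needs, was at 157, 151 and 192 CPM in GSK-J4 and at 137, 137 and 159 CPM in LPS + GSK-J4, with overlapping groups (-0.21, 95% interval from -0.48 to 0.07). Runx1 (-0.03, interval from -0.32 to 0.26) and Mef2c (-0.02, interval from -0.37 to 0.32), a target of TGF-beta in microglia, were closest to 0. Mef2a, a related factor, was at 268, 335 and 256 CPM and at 247, 238 and 175 CPM, apart between the groups but with an adjusted p of 0.0674 (-0.38, edgeR). Sall1, a repressor that defines microglia among macrophages (chr8:89027235-89044162, minus strand), went the other way. It was at 4.25, 7.18 and 4.03 CPM in GSK-J4 and at 7.81, 12.2 and 13.6 CPM in LPS + GSK-J4, a low level at which each library with LPS was higher than each one without. The log2 fold change of 1.08 ± 0.316 (SE), with a 95% interval from 0.41 to 1.75, had an adjusted p of 0.0206 in edgeR's test and did not pass the threshold. Sall1 is also known in neural progenitors and glia. Most tested markers of astrocytes, the oligodendrocyte lineage and neurons were higher in the LPS + GSK-J4 libraries, as given below. Any part of such cells in the Sall1 difference was not tested.

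A list of other transcription factors, drawn up for the myeloid lineage but with Sall3 among them, included larger changes than any identity gene. Of 15 tested, 4 fell and 1 rose at the adjusted p, beside 5.46% and 8.42% of all genes tested, with a median log2 fold change of -0.22. Bhlhe41 and Bhlhe40, repressors that support the growth of resident macrophages, fell from 670 ± 59.4 to 179 ± 5.79 CPM and from 786 ± 51.8 to 214 ± 14.1 CPM (SD, n = 3), by log2 fold changes of -1.91 and -1.88 (adjusted p = 3.99e-09 for each, edgeR). Cebpa, a factor of myeloid development, fell from 596 ± 143 to 190 ± 29.8 CPM (-1.65, adjusted p = 1.5e-06, edgeR). These 3 were past the thresholds of the study, Fli1 also fell, and Ets2 rose. Sall3 was at 5.33 ± 0.480 and 11.3 ± 4.97 CPM, with groups apart. Its log2 fold change of 1.08 did not pass (adjusted p = 0.0243, edgeR).

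Integrin and cytoskeleton genes had a median log2 fold change of -0.06 over 6 genes, 3 lower and 3 higher by sign, and none passed the test. Itgam, the Cd11b chain of complement receptor 3 that marks microglia (chr7:128062640-128118491, plus strand), was at 222, 206 and 214 CPM in GSK-J4 and at 185, 184 and 185 CPM in LPS + GSK-J4. The groups were apart, but the log2 fold change of -0.21 had a 95% interval from -0.45 to 0.02 and an adjusted p of 0.179 (edgeR). Its partner Itgb2 was at 366, 358 and 379 CPM and at 370, 371 and 410 CPM, with an interval from -0.16 to 0.28 around 0.06. Itgb5 (-0.19), the endocytic adaptor Bin1 (0.10) and Aif1 (-0.31), which encodes Iba1, overlapped between the groups, and Aif1 had at most 7.63 CPM in any library. Rhob, a small GTPase of endosomes and actin, was at 131, 139 and 187 CPM without LPS and at 190, 205 and 278 CPM with it. The groups were apart by a narrow gap, with a log2 fold change of 0.56 and an adjusted p of 0.0186 (edgeR), which was 0.000116 without replicate 3 of both groups. This adjusted p reached 0.0889 in another of the fits with libraries left out.

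The 3 subunits of C1q, the recognition molecule of the classical complement pathway, come from neighbouring genes on chromosome 4, and each was lower by sign with LPS. C1qa (chr4:136895917-136898803, minus strand) was at 464, 476 and 513 CPM in GSK-J4 (484 ± 25.4, SD, n = 3) and at 347, 391 and 453 CPM in LPS + GSK-J4 (397 ± 53.3). Replicate 3 was the highest of its group for each subunit in both groups, and the groups of C1qa were apart by a small margin. The log2 fold changes were -0.28 for C1qa, -0.18 for C1qb and -0.35 for C1qc, with adjusted p values of 0.0931, 0.292 and 0.0494 in edgeR's test, so none passed. Without replicate 3 of both groups C1qa and C1qc passed. Over all fits with libraries left out, their adjusted p ranged from 0.0038 to 0.307 and from 0.0057 to 0.182 (edgeR). Per length, C1qa was 1.53 to 1.76 times C1qb and 2.24 to 2.58 times C1qc over the 6 libraries.

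Among the transporters and enzymes, Lgmn (chr12:102394084-102439813, minus strand) fell. It was at 429, 516 and 504 CPM in GSK-J4 (483 ± 47.0, SD, n = 3) and at 331, 346 and 378 CPM in LPS + GSK-J4 (352 ± 24.0). The groups were apart, with a log2 fold change of -0.46 ± 0.113 (SE), a 95% interval from -0.70 to -0.22 and an adjusted p of 0.00779 in edgeR's test. The call was lost without GSK-J4 replicate 2 (adjusted p = 0.0555), GSK-J4 replicate 3 (0.0225), LPS + GSK-J4 replicate 1 (0.0336) or LPS + GSK-J4 replicate 2 (0.0481), with log2 fold changes from -0.44 to -0.41, and held without replicate 3 of both groups (0.000361). Slc2a5, a fructose transporter that marks microglia among brain cells, had 1 count in replicate 3 of each group and 0 in the other libraries. The organic anion transporter Slco2b1 (-0.23), the leukotriene C4 synthase Ltc4s (-0.22) and the Golgi protein Golm1 (-0.05) overlapped between the groups.

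Microglia and macrophage markers were mostly lower with LPS, as the identity genes were. Most tested markers of astrocytes, the oligodendrocyte lineage and neurons were higher. The part of any of these cells in the results was not tested. Of 12 microglia and macrophage markers outside the identity genes, all tested, 4 fell (Laptm5, Adgre1, Fcgr3 and Ctsd) and 11 were lower by sign, with a median log2 fold change of -0.41. The 4 that fell were 33.3% of the list, beside 5.46% of all genes tested. The number that passed was 1 without GSK-J4 replicate 2 or LPS + GSK-J4 replicate 2, 2 without replicate 1 of either group, 7 without LPS + GSK-J4 replicate 3 and 8 without replicate 3 of both groups. Their summed level was between 15453 and 16731 CPM in GSK-J4 and between 10724 and 11325 CPM in LPS + GSK-J4, and Ctsd, a lysosomal protease, took most of it (11215 ± 709 and 7108 ± 418 CPM, SD, n = 3). Of 9 tested astrocyte markers 4 rose, among them Gfap, an intermediate filament (1.70), and the factor Sox9 (1.53), both past the thresholds of the study, and the list summed to between 244 and 259 CPM without LPS and between 351 and 361 CPM with it. Glul, which hardly differed (0.03), took most of this sum (191 ± 9.60 and 195 ± 12.6 CPM, SD, n = 3). Aldh1l1 was lower by sign (-0.16), and Slc1a2, Slc1a3 and Aldoc were higher by sign without passing. Of 8 tested oligodendrocyte lineage markers 5 rose, Olig1 by the most (1.25), with sums of 216 to 250 CPM without LPS and 394 to 448 CPM with it. The 4 neuronal markers tested, of 8 listed, rose, with Gad1 (1.93) and Stmn2 (1.52) past the thresholds of the study, and a sum of at most 26.0 CPM in GSK-J4 and at least 54.1 CPM in LPS + GSK-J4, and 2 passed without replicate 1 of either group. The defining neuronal markers Rbfox3, Snap25, Syt1 and Slc17a7 had at most 5 counts in any library and were not tested. None of 6 fibroblast markers passed the adjusted p in edgeR or DESeq2 (1 was higher at an unadjusted p under 0.05, and 3 passed without GSK-J4 replicate 1), with sums of 80.1 to 281 and 138 to 427 CPM and Dcn at the largest log2 fold change (1.28, adjusted p = 0.143). Of 3 tested markers of monocytes and border macrophages F13a1 fell (-0.93), 2 passed without replicate 3 of both groups, and the list summed to 264 to 340 and 156 to 187 CPM. F13a1 took most of this sum (242 ± 30.7 and 127 ± 9.93 CPM, SD, n = 3). By sign Mrc1 was lower (-0.57) and Pf4 higher (0.41), and neither passed. Ly6c2, Ccr2, Cd163 and Lyve1 had at most 9 counts in any library and were not tested. The endothelial list, with Flt1 tested (0.61, adjusted p = 0.223, edgeR), summed to 6.73 to 10.6 and 9.50 to 12.1 CPM with Cldn5 at 0. The neutrophil list, with S100a8 tested (-0.04, adjusted p = 0.957, edgeR), summed to at most 4.71 and 4.96 CPM with S100a9 at 0.

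**Figure D4:**
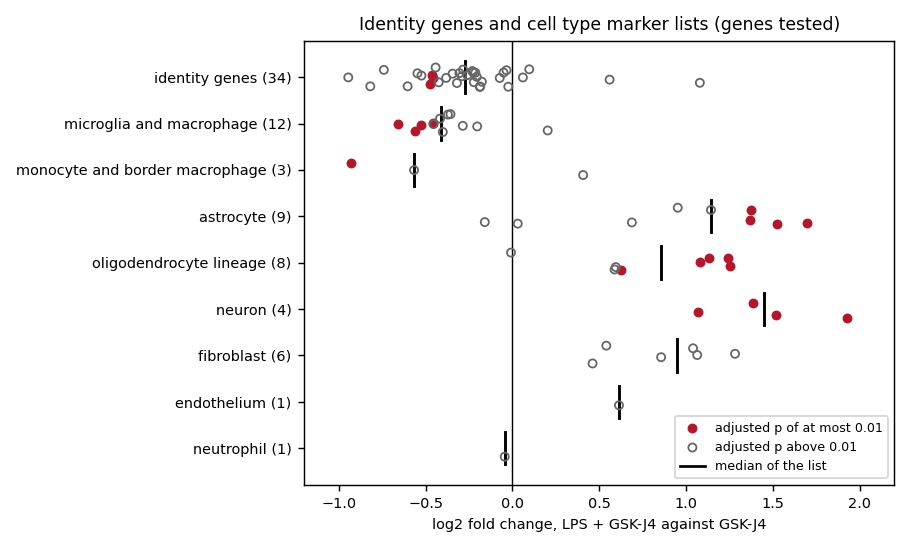
Log2 fold change of LPS + GSK-J4 against GSK-J4 (x axis) of each tested gene of the identity genes and of 8 cell type marker lists (y axis, number tested in brackets), filled where the adjusted p was at most 0.01, with the median of each list as a bar. Microglia and macrophage markers (median -0.41) lie on the same side as the identity genes (-0.27), and tested astrocyte, oligodendrocyte lineage and neuron markers lie mostly above 0.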

How the data were processed

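RNA was sequenced from 6 libraries of PM, grouped and numbered by the titles in the labels. Per the submitters' processing notes, the tools included CASAVA 1.8.2, Trimmomatic 0.33, STAR 2.5.1 and DESeq2, with mm10. The authors deposited STAR's raw counts of fragments per gene, without normalization. STAR counts uniquely mapped fragments only, so near-identical genes are undercounted. The reverse-strand column was used, with the 4 tally lines left out. The annotation used for counting is not given in the sources used here. Positions and exon lengths are from GENCODE M21.

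Genes were filtered by filterByExpr (minimum count 10, minimum total 15), scaled by TMM and tested in edgeR 4.0.16 (R 4.3.3, limma 3.58.1) by the robust quasi-likelihood test without covariates, with Benjamini-Hochberg adjustment over all 10133 genes tested. DESeq2 1.42.0 was an alternative. The model was tested on simulated data. At a simulated log2 fold change of 1, edgeR called 64 of 98 genes at the adjusted p and DESeq2 called 47. At 2 they called 94 and 85 of 96, and of 9587 unchanged genes each called 1. No smaller change was simulated, so genes with smaller differences that did not pass were not shown to be unchanged. With 3 libraries in each group, no exact permutation p can be below 0.1. Figures were drawn in Python 3.11.15 with matplotlib 3.10.9.

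The members, their roles and all lists were chosen with earlier results of these data known. Each member was named, with values per library for those called and the leading gene of each role, and for some others chosen after their values were seen. Of the other lists, genes past the study's thresholds were named, or else the gene with the largest change, and those called in lists of interest. Intervals and floors cover counting error or the spread between these libraries only.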

Additional observations from a re-analysis of the deposited data

Results flagged for a closer look

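Antisense counts, which no comparison used, exceeded the limit that a count of 0 allows for 5 identity genes in each of the 6 libraries. Cx3cr1 had 91 antisense fragments in all (8 to 24 per library), 1.49% of its sense fragments. Tgfbr1 had 74 (5 to 26 per library), 1.25% of its sense fragments. Mef2a had 67 (7 to 21 per library), or 1.34%. Itgb2 had 36 (4 to 9 per library), or 0.507%. C1qc had 38 (4 to 12 per library), or 0.589%.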

How the results depend on the processing

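The count of 3 identity genes past the adjusted p was 3 or 4 (with Fcrls added) under unstranded counts, DESeq2's size factors, upper-quartile factors, removal of the ribosomal features, DESeq2's own test and a minimum of 10 counts in every library. It was 11 of 38 with no filter on low counts, where 1951 of 18016 genes passed, 10 at an adjusted p up to 0.05, 9 at an unadjusted p up to 0.01, and 0 to 9 when libraries were left out. It was 0 without GSK-J4 replicate 2 and without LPS + GSK-J4 replicate 2, 1 without GSK-J4 replicate 1, 5 without LPS + GSK-J4 replicate 1, 6 without LPS + GSK-J4 replicate 3 and 9 without replicate 3 of both groups, the last an alternative chosen after seeing the data. Removing 1 library leaves fewer samples. The replicate numbers were not used to pair the samples in the main fit. The correlations of same-numbered libraries were -0.01, 0.12 and 0.30. Replicate 3 of both groups and LPS + GSK-J4 replicate 2, but not the other 3 libraries, correlated best with their own number. With 3 libraries in each group, these correlations cannot decide whether the samples were paired. With the replicate number as a block 13 identity genes (11 lower and 2 higher) and 2275 of all genes passed the adjusted p. No identity gene passed the thresholds of the study in any of these fits, and 1, Sall1, did at the looser pair of an adjusted p up to 0.05 and a log2 fold change from 1 up, where 1129 of all genes passed. Of all genes, 381 passed the thresholds of the study, or 232 with at least 10 counts in every library, where 8594 genes were tested, and 351 to 470 when libraries were left out. At the adjusted p alone 1406 of all genes passed, 2390 at 0.05, 2309 at an unadjusted p up to 0.01, and 920 to 1750 when libraries were left out. The median log2 fold change of the identity genes was -0.40 to -0.22 when libraries were left out. The direction of 6 genes with small differences reversed there, with log2 fold changes from -0.21 to 0.18 for P2ry6, -0.38 to 0.0224 for Olfml3, -0.15 to 0.13 for Mef2c, -0.13 to 0.0579 for Runx1, -0.17 to 0.11 for Golm1 and -0.0395 to 0.18 for Bin1. The cause of these changes was not tested. Leaving out the filter on low counts shifted the median log2 fold change of all genes by 0.12. Depth limits Siglech, Crybb1, Slc2a5, Gpr34 and Tmem119, for which differences were not detectable or only roughly measured.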

Other observations

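Further genes reported for microglia, from a list apart from the identity genes, moved in both directions. Of 16 tested, 3 fell (P2rx7, Hpgds and Abcc3) and 2 rose (Sparc and Tlr2), with a median log2 fold change of -0.10, and 2 passed without GSK-J4 replicate 2, 3 without LPS + GSK-J4 replicate 2 and 8 with the replicate number as a block. P2rx7, an ATP-gated channel, fell from 168 ± 5.67 to 61.1 ± 7.10 CPM (SD, n = 3), by a log2 fold change of -1.46 (adjusted p = 5.61e-07, edgeR), a larger size than that of any identity gene. Of 10 genes that rise in disease-associated microglia, Apoe and Ctsb fell and Lpl, Itgax and Spp1 rose, with a median of -0.00125, and between 1 (without GSK-J4 replicate 2) and 6 (without LPS + GSK-J4 replicate 3, or replicate 3 of both groups) passed when libraries were left out, with 2 or 3 without GSK-J4 replicate 1, LPS + GSK-J4 replicate 1 or LPS + GSK-J4 replicate 2. Lpl, a lipase of triglyceride-rich lipoproteins, rose from 124 ± 15.3 to 234 ± 29.9 CPM (0.91, adjusted p = 0.000113, edgeR).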
